A study of Mus musculus with 12 samples.

Results

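The angiopoietin-Tie system was examined in bone marrow progenitors through its 4 best known genes, the ligands *Angpt1* and *Angpt2* and the receptors *Tek* (Tie2) and *Tie1*. They were taken by name, as 4 of the 55291 rows of a matrix of raw RNA-Seq read counts, and all 4 had enough reads to be among the 15825 genes tested. The libraries came from Lin-cKit+ (LK) bone marrow cells of 12-month-old C57BL/6 mice, 1 library per mouse. There were 3 wild type (WT) mice, 3 *Kdm6bΔ/+* mice, 3 *Asxl1Y588X*Tg mice, and 3 *Asxl1Y588X*Tg *Kdm6bΔ/+* mice. *Asxl1Y588X*Tg mice carry a transgene for the truncated protein ASXL1aa1-587 and were preleukemic when the cells were taken, and in *Kdm6bΔ/+* mice 1 allele of the H3K27 demethylase gene *Kdm6b* was deleted by *Mx1Cre* after pI:pC injection. *Mx1Cre* acts in blood and also in other interferon-responsive cells, and whether the WT and *Asxl1Y588X*Tg mice sequenced here received pI:pC or carried Cre is not given in the sources used here. The cells were selected on beads, so LK denotes an enriched population of mostly committed progenitors with few stem cells. Total counts per library were between 14451522 and 23482563.

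ANGPT1 binds the receptor tyrosine kinase TEK and activates it, whereas ANGPT2 binds the same receptor and, depending on context, blocks or weakly activates it. TIE1 has no ligand of its own among the angiopoietins, pairs with TEK, and modulates its signal. In blood vessels the system controls vessel stability, with ANGPT1 made mostly by perivascular cells and megakaryocytes and ANGPT2 by endothelium. In bone marrow, TEK and TIE1 are also found on hematopoietic stem cells (HSCs), and ANGPT1 is made by hematopoietic stem and progenitor cells as well as by stroma and is tied to stem cell quiescence and regeneration of the marrow vasculature.

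In the mm10 build with GENCODE vM21, *Angpt1* (ENSMUSG00000022309.9) is at chr15:42424723-42676977 on the minus strand with 5205 bp of exon, and its exons overlap those of the antisense gene *Gm17473* by 737 bp. *Gm17473* had mean normalized counts from 4.70 to 9.42 by genotype. *Angpt2* (ENSMUSG00000031465.6), with 3690 bp of exon, is at chr8:18690263-18741562 on the minus strand, inside the plus-strand gene *Mcph1* but sharing 0 bp of exon with it. *Tek* is at chr4:94739289-94874976 on the plus strand with 4712 bp of exon, and *Tie1* at chr4:118471191-118490061 on the minus strand with 4917 bp. Whether strand was used in counting is not given in the sources used here.

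Upstream sequences of the receptor genes are shown because both receptors were called in the same direction in each comparison with *Asxl1Y588X*Tg described here. They are from the RefSeq promoter table (GRCm38.p6), which held 2 of the 4 genes, *Tek* and *Tie1*, and are written 5′ to 3′ on the strand of the gene. The stretch shown for *Tek* is chr4:94739039-94739288 (plus strand, 250 bases), and for *Tie1*, where a GENCODE transcript starts upstream of the RefSeq start, the 38 bases before the former at chr4:118490062-118490099 (minus strand). Capitals mark the reverse complement of a MEIS motif (TGACAG) in *Tek* and of an ETS motif (AGGAAG) in *Tie1*.
Tek: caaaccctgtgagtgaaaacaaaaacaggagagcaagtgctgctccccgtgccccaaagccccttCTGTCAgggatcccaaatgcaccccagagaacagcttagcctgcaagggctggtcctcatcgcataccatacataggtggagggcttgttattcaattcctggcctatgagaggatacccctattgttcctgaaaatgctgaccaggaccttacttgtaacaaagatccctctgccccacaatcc
Tie1: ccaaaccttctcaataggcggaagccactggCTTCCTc
Each window of 300 bases was searched on both strands for the GATA motif GATAA, the ETS motif AGGAAG, the E-box motif CANNTG, and the MEIS motif TGACAG, and positions are counted from the RefSeq start. *Tek* held TGACAG at position -185, GATAA at position 38, and CANNTG at positions -217 and -172. *Tie1* held AGGAAG at positions -219 and 34 and CANNTG at position -183. Among 32851 mouse promoters of this length, 25.4% held GATAA, 35.4% AGGAAG, 72.3% CANNTG, and 19.2% TGACAG. These matches describe letters in the window, and binding was not measured.

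*Kdm6b* was lower in both genotypes labelled with its deletion, but it was not called in either comparison. Its normalized count, the count scaled by TMM to the mean library size, was 2127 ± 252 (SD, n = 3) in WT and 1499 ± 141 in *Kdm6bΔ/+* cells. It was 2253 ± 59.7 in *Asxl1Y588X*Tg and 1810 ± 141 in *Asxl1Y588X*Tg *Kdm6bΔ/+* cells (edgeR adjusted p = 0.279 and 0.0717). In neither pair did the groups overlap, where 4.8% and 14.1% of all tested genes were lower without overlap. *Asxl1* reads, 2796 ± 269 in WT and 3000 ± 82.4 in *Asxl1Y588X*Tg cells, did not separate the genotypes. The sex of the mice differed between genotypes. Transcripts of Y-linked genes such as *Ddx3y* were taken as present at 100 counts or more per library. They were present in 0 of 3 WT, 2 of 3 *Kdm6bΔ/+*, 1 of 3 *Asxl1Y588X*Tg, and 3 of 3 *Asxl1Y588X*Tg *Kdm6bΔ/+* libraries, with *Xist* in the others. Sex and genotype therefore cannot be told apart in the pairwise comparison of *Asxl1Y588X*Tg *Kdm6bΔ/+* with WT.

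In WT LK cells *Angpt1* had the highest level of the 4 genes relative to length. Its mean was 7.55 ± 1.87 CPM per kb of exon (SD, n = 3), higher than that of 63.1% of 15481 tested genes with a known length. *Tie1* was at 3.55 CPM per kb, higher than 48.0% of these genes. *Tek*, at 0.831 CPM per kb, and *Angpt2*, at 0.615 CPM per kb, were in the lower part of the range, above 26.4% and 22.0% of genes. The order *Angpt1*, *Tie1*, *Tek*, *Angpt2* held in 9 of the 12 libraries. *Angpt2* was above *Tek* in WT replicate 2 and *Asxl1Y588X*Tg *Kdm6bΔ/+* replicate 2, and *Tie1* was above *Angpt1* in *Kdm6bΔ/+* replicate 1. The plot of levels per length shows that *Tek* and *Angpt2* lay close together in every genotype except *Asxl1Y588X*Tg, where *Tek* averaged 2.91 and *Angpt2* 0.436 CPM per kb.

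**Figure D1:**
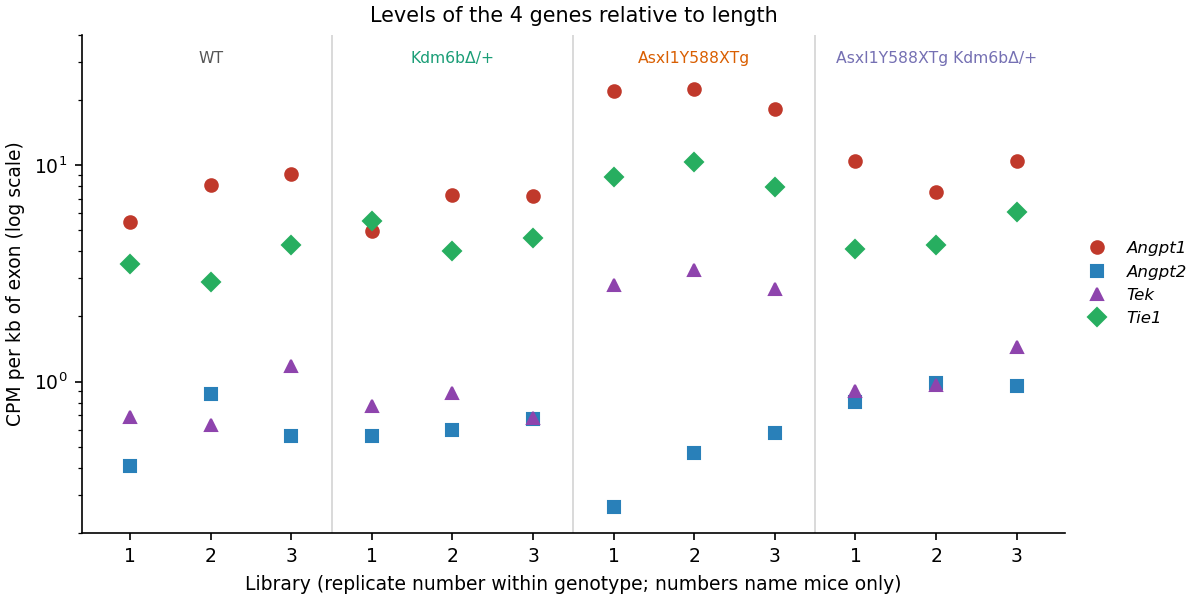
CPM per kb of exon (log axis) of Angpt1, Angpt2, Tek, and Tie1 in each of the 12 libraries, 1 symbol per gene, grouped by genotype. Angpt1 was highest in 11 of the 12 libraries, and the gap between Tek and Angpt2 was widest in the 3 Asxl1Y588XTg libraries.

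To determine how the truncated *Asxl1* transgene bears on the system, *Asxl1Y588X*Tg cells were compared with WT cells. The ligand *Angpt1* and both receptors were upregulated, and *Angpt2* was not. All 3 genes were called, that is, passed an adjusted p of 0.05 (edgeR quasi-likelihood test, Benjamini-Hochberg method, 15825 genes) at a fold change above 1.5, where 1.58% of all tested genes were called higher and 0.0316% lower. Because these are bulk libraries, more cells that make a transcript and more transcript per cell cannot be told apart.

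*Angpt1* had normalized counts of 498.6, 743.9, and 829.0 in the 3 WT libraries and of 2019, 2056, and 1665 in the 3 *Asxl1Y588X*Tg libraries. The lowest *Asxl1Y588X*Tg library was above the highest WT library, as was the case for 10.5% of all tested genes. The log2 fold change was 1.47 (SE 0.18, 95% interval 1.07 to 1.87, edgeR adjusted p = 0.00545), a 2.77-fold rise.

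*Tek*, the signalling receptor for both ligands, was at 56.7, 52.4, and 97.3 normalized counts in WT and at 231, 271, and 222 in *Asxl1Y588X*Tg libraries. WT replicate 3 was the highest of its group and still far below the *Asxl1Y588X*Tg range. The 3.50-fold rise (log2 1.81, SE 0.26, 95% interval 1.23 to 2.39, edgeR adjusted p = 0.00835) had the largest fitted value of the 4 genes. *Tie1*, its co-receptor, was at 303, 248, and 369 in WT and 758, 896, and 684 in *Asxl1Y588X*Tg libraries. These groups did not overlap either, and the fold change was 2.53 (log2 1.34, SE 0.16, 95% interval 0.99 to 1.70, edgeR adjusted p = 0.00423).

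*Angpt2*, the context-dependent antagonist, was at 26.5, 56.8, and 36.4 normalized counts in WT and at 17.1, 30.2, and 37.5 in *Asxl1Y588X*Tg libraries. The groups overlapped, and the log2 difference of -0.49 (SE 0.45, 95% interval -1.50 to 0.51) was not called (edgeR adjusted p = 0.845). Raw counts of this gene were between 17 and 71 per library. A gene with lower values in all *Asxl1Y588X*Tg than in all WT libraries, as seen for 5.21% of tested genes, was not among the 4. The 3 calls remained when any 1 library was left out, including *Asxl1Y588X*Tg replicate 2. All 5 libraries of that fit had 8 Y-linked counts or fewer (log2 fold change 1.42 for *Angpt1*, 1.72 for *Tek*, and 1.24 for *Tie1*).

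**Figure D2:**
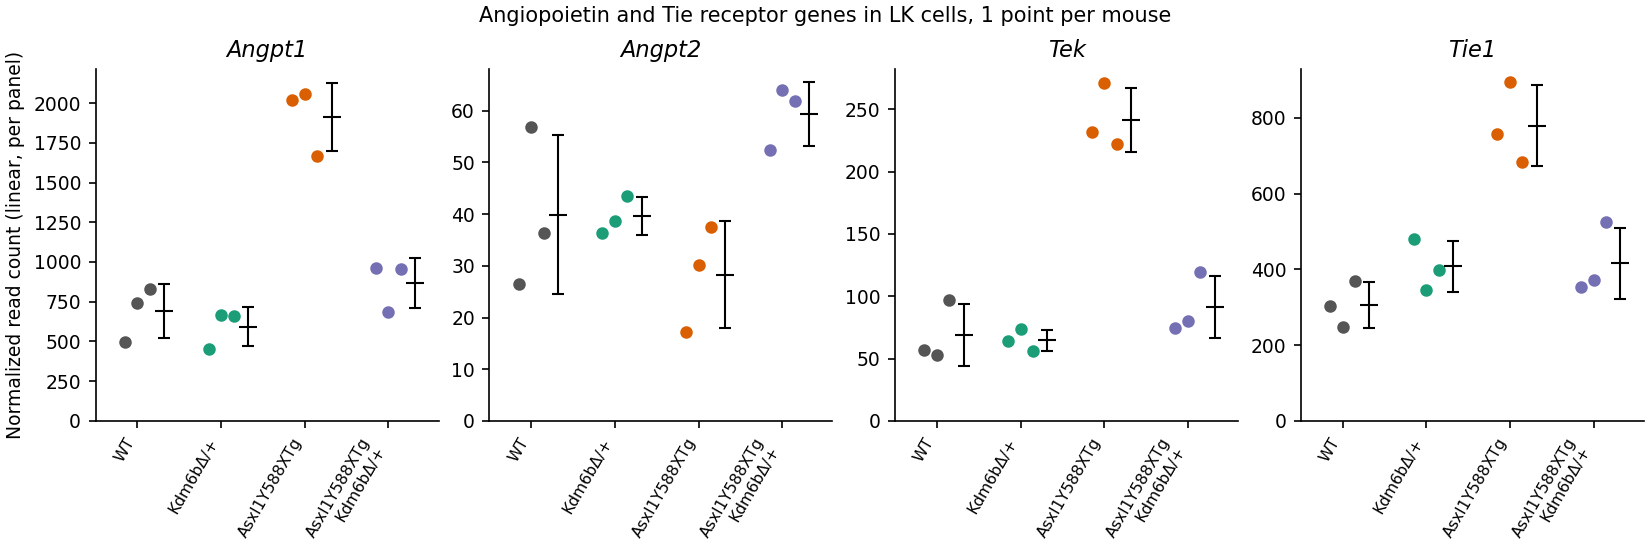
Normalized read counts (linear axis from 0, a scale per panel) of the 4 genes, with 1 point per mouse, and with the mean and SD of the 3 mice of each genotype as a black bar. The Asxl1Y588XTg points for Angpt1, Tek, and Tie1 lie above every point of the other genotypes, and those for Angpt2 do not.

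To examine the loss of 1 *Kdm6b* allele on this background, *Asxl1Y588X*Tg *Kdm6bΔ/+* cells were compared with *Asxl1Y588X*Tg cells. *Angpt1*, *Tek*, and *Tie1* were called lower, against 1.59% of all tested genes called lower and 0.145% called higher. This comparison uses the same 3 *Asxl1Y588X*Tg libraries as the one with WT, so the directions in the pair of comparisons are not independent. *Angpt1* was at 959.7, 684.9, and 955.3 normalized counts in the 3 *Asxl1Y588X*Tg *Kdm6bΔ/+* libraries. Every one of them was below every *Asxl1Y588X*Tg library, as was the case for 14.1% of all tested genes. The log2 fold change was -1.12 (SE 0.15, 95% interval -1.47 to -0.78, edgeR adjusted p = 0.0165), and the call was lost without *Asxl1Y588X*Tg *Kdm6bΔ/+* replicate 1, the most deeply sequenced library (log2 fold change -1.20, adjusted p = 0.0736).

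*Tek* was at 74.5, 80.0, and 120 normalized counts in the *Asxl1Y588X*Tg *Kdm6bΔ/+* libraries, again with no overlap. Its log2 fold change of -1.39 (SE 0.20, 95% interval -1.82 to -0.96, edgeR adjusted p = 0.00861) stayed called with any 1 library left out. *Tie1* was at 354, 371, and 524, below all 3 *Asxl1Y588X*Tg libraries, with a log2 fold change of -0.89 (SE 0.17, 95% interval -1.28 to -0.50, edgeR adjusted p = 0.0444). That call was close to the threshold and was kept only without *Asxl1Y588X*Tg *Kdm6bΔ/+* replicate 3 (log2 fold change -1.09, adjusted p = 0.00406). It was lost without *Asxl1Y588X*Tg replicate 1 (adjusted p = 0.0993), replicate 2 (0.0612), or replicate 3 (0.0576), and without *Asxl1Y588X*Tg *Kdm6bΔ/+* replicate 1 (0.134) or replicate 2 (0.169).

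*Angpt2* went the other way. It was at 52.4, 64.0, and 61.9 normalized counts in *Asxl1Y588X*Tg *Kdm6bΔ/+* cells, above all 3 *Asxl1Y588X*Tg libraries, as was the case for 7.11% of all tested genes. Its log2 difference was 1.08 (SE 0.31, 95% interval 0.40 to 1.77), with an unadjusted p of 0.00506 by edgeR and an adjusted p of 0.113, and it was not called. Only 1 of the 3 *Asxl1Y588X*Tg mice and all 3 *Asxl1Y588X*Tg *Kdm6bΔ/+* mice had Y-linked transcripts. In a fit of all 4 genotypes with a term for these transcripts, *Tie1* remained called (log2 fold change -1.12), whereas *Angpt1* (-1.12, adjusted p = 0.119) and *Tek* (-1.41, adjusted p = 0.0717) kept their values and lost the call.

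**Figure D3:**
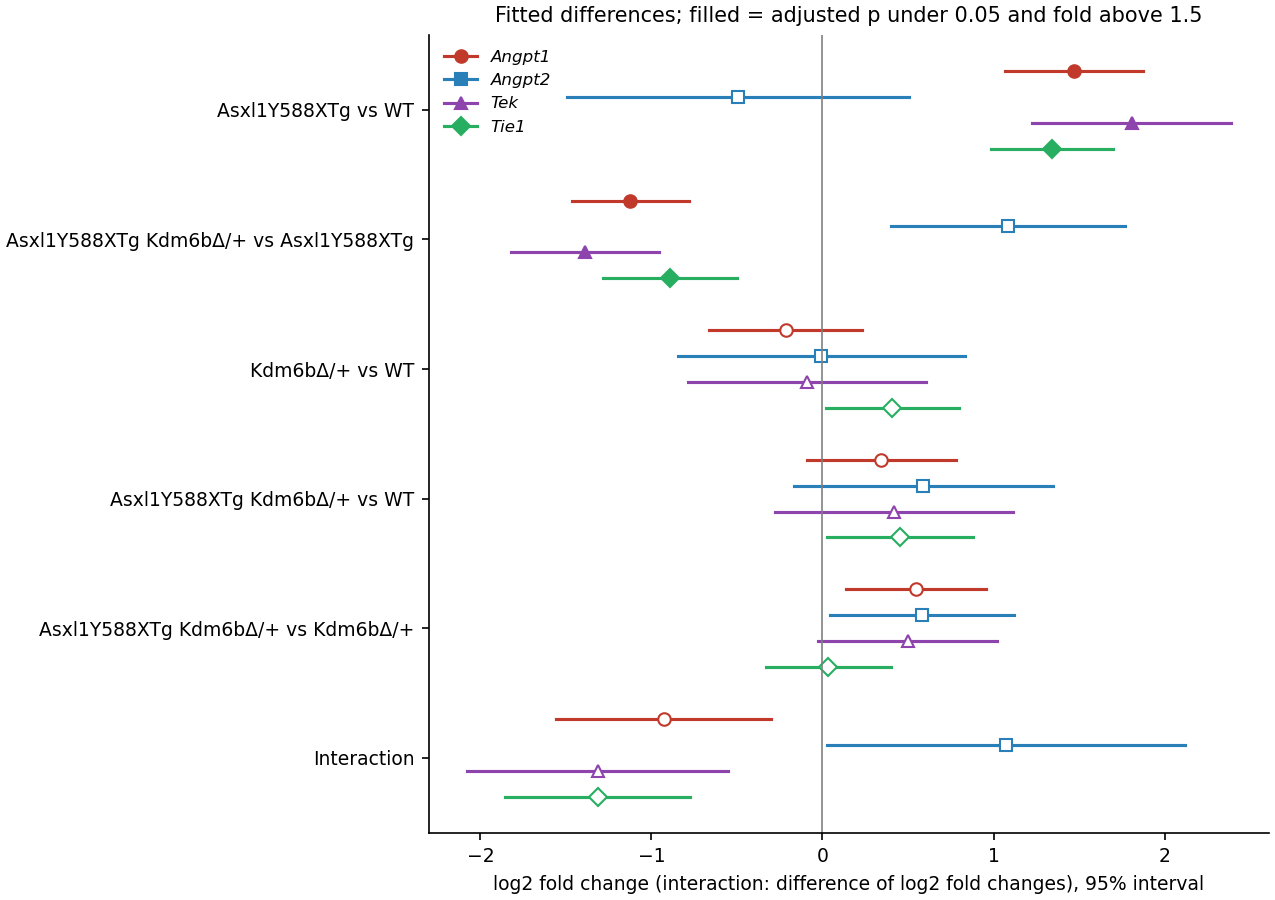
Fitted log2 fold changes (horizontal axis) with 95% intervals for the 4 genes in the 5 pairwise comparisons and the interaction, where filled symbols are called. The 3 filled symbols of the first comparison lie between 1.34 and 1.81, those of the second between -1.39 and -0.89, and the other comparisons have none.

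Loss of 1 *Kdm6b* allele without the transgene was examined in *Kdm6bΔ/+* and WT cells. None of the 4 genes was called by edgeR or DESeq2, where 0.0758% of all tested genes were called higher and 0.019% lower. *Angpt1* was at 453.6, 667.3, and 658.2 normalized counts in *Kdm6bΔ/+* cells and overlapped with WT (log2 difference -0.22, 95% interval -0.66 to 0.23). *Tek* was at 64.1, 73.4, and 56.1 (-0.09, 95% interval -0.79 to 0.60) and *Angpt2* at 36.4, 38.7, and 43.6 (-0.01, 95% interval -0.84 to 0.83). *Tie1* was at 479, 345, and 399, with a log2 difference of 0.41 (95% interval 0.02 to 0.80) and an unadjusted p of 0.0410 by edgeR, among 552 genes under 0.05, and its adjusted p was 0.9999. With a term for Y-linked transcripts, present in 2 of 3 *Kdm6bΔ/+* and 0 of 3 WT libraries, this value was 0.18. The groups overlapped for all 4 genes, whereas 4.13% of tested genes were higher and 4.8% lower without overlap. The intervals for *Tek* and *Angpt2* leave room for changes of over 1.5-fold either way.

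*Asxl1Y588X*Tg *Kdm6bΔ/+* cells were also compared with WT cells. Again 0 of the 4 genes were called by edgeR or DESeq2, against 0.145% of tested genes called higher and 0.0695% lower, and all 4 overlapped with WT, where 6.68% of tested genes were higher and 6.87% lower without overlap. The log2 differences were 0.34 for *Angpt1* (95% interval -0.09 to 0.78), 0.59 for *Angpt2* (-0.17 to 1.35), 0.42 for *Tek* (-0.28 to 1.11), and 0.45 for *Tie1* (0.03 to 0.88). *Tie1* alone had an unadjusted p under 0.05 by edgeR (0.0397, adjusted p = 0.716), as had 1075 of the genes tested. In the fit with a term for Y-linked transcripts the *Tie1* difference was 0.11. With 1 library left out the values were 0.15 to 0.50 for *Angpt1*, 0.36 to 0.93 for *Angpt2*, 0.18 to 0.75 for *Tek*, and 0.25 to 0.61 for *Tie1*. A p above the threshold does not show that these levels had returned to those of WT, and the upper bounds of the intervals for *Angpt2* and *Tek* exceed 1 on the log2 scale.

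Within *Kdm6bΔ/+* cells the transgene was examined by comparing *Asxl1Y588X*Tg *Kdm6bΔ/+* with *Kdm6bΔ/+*. None of the 4 genes was called by edgeR or DESeq2 (background 0.0569% higher and 0.0379% lower). *Angpt1*, *Angpt2*, and *Tek* were higher in all 3 *Asxl1Y588X*Tg *Kdm6bΔ/+* libraries than in all 3 *Kdm6bΔ/+* libraries, which was the case for 9.32% of all tested genes, with another 9.57% lower throughout. Their log2 differences were 0.55 (95% interval 0.14 to 0.95, edgeR adjusted p = 0.297), 0.58 (0.04 to 1.12, adjusted p = 0.376), and 0.50 (-0.03 to 1.02, adjusted p = 0.432). For *Angpt1* the adjusted p was 0.0494 by DESeq2 and 5.34e-05 by edgeR without an expression filter, at log2 differences of 0.55 that stayed under the fold of 1.5, so the gene was not called there either. It was between 0.149 and 0.636 in the other 12 settings, leaving out each library among them. *Tie1* was at 0.03 (-0.33 to 0.40). By the mean of the normalized counts, *Asxl1Y588X*Tg came first for *Angpt1* (1913 ± 216), followed by *Asxl1Y588X*Tg *Kdm6bΔ/+* (867 ± 157), WT (691 ± 172), and *Kdm6bΔ/+* (593 ± 121). *Tek* had the same order with 241 ± 25.9, 91.4 ± 24.6, 68.8 ± 24.8, and 64.5 ± 8.66. For *Tie1* the order was *Asxl1Y588X*Tg (779 ± 107), *Asxl1Y588X*Tg *Kdm6bΔ/+* (416 ± 93.6), *Kdm6bΔ/+* (407 ± 67.3), and WT (307 ± 60.6). *Angpt2* was highest in *Asxl1Y588X*Tg *Kdm6bΔ/+* (59.4 ± 6.19), then WT (39.9 ± 15.4), *Kdm6bΔ/+* (39.6 ± 3.67), and *Asxl1Y588X*Tg (28.3 ± 10.3). Genotypes next to each other in these orders overlapped, except that *Asxl1Y588X*Tg stood clear of its neighbour for *Angpt1*, *Tek*, and *Tie1*.

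Whether the effect of the *Kdm6b* deletion differed between the backgrounds was tested as an interaction over all 12 libraries. None of the 4 genes was called, and neither were most others, since 0% of tested genes were called higher and 0.0126% lower. The fitted difference was -1.31 for *Tie1* (95% interval -1.86 to -0.77, edgeR unadjusted p = 0.000126, adjusted p = 0.171), the 11th smallest p of 15825. It was -1.31 for *Tek* (-2.08 to -0.55, unadjusted p = 0.00224, adjusted p = 0.372), -0.93 for *Angpt1* (-1.56 to -0.30, unadjusted p = 0.00763, adjusted p = 0.491), and 1.07 for *Angpt2* (0.03 to 2.12, unadjusted p = 0.0453, adjusted p = 0.722). All 4 intervals exclude 0, and 1087 of the genes tested had an unadjusted p under 0.05. By DESeq2 *Tie1* was called (-1.30, adjusted p = 0.00146), and without an expression filter *Angpt1*, *Tek*, and *Tie1* were.

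The balance of the ligands and of the receptors was then described with ratios of CPM per kb within a library. *Angpt1* exceeded *Angpt2* by 13.3, 9.28, and 16.2 times in WT, 8.83, 12.2, and 10.7 times in *Kdm6bΔ/+*, 83.7, 48.3, and 31.5 times in *Asxl1Y588X*Tg, and 12.99, 7.59, and 10.9 times in *Asxl1Y588X*Tg *Kdm6bΔ/+* libraries. All 3 *Asxl1Y588X*Tg libraries thus lay above the other 9, and the widest value, 83.7, rests on 17 reads of *Angpt2*. The ratio of *Tie1* to *Tek* had medians of 4.53 in WT, 6.81 in *Kdm6bΔ/+*, 3.14 in *Asxl1Y588X*Tg, and 4.44 in *Asxl1Y588X*Tg *Kdm6bΔ/+* cells, and its highest *Asxl1Y588X*Tg value, 3.17, was below the lowest of the other 9 libraries, 3.63. The ratio of *Angpt1* to *Tek*, with medians of 7.96, 8.23, 6.88, and 7.75, overlapped among all genotypes. These ratios are descriptions and were not tested.

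The list of Tie signalling genes, which carry the TEK signal, had 40 members beyond the 4 genes above, of which 39 were tested. In *Asxl1Y588X*Tg against WT, 0 were called by edgeR, where 1.58% of all tested genes were called higher and 0.0316% lower. There were 21 with a positive and 18 with a negative log2 difference, and their median was 0.02 beside -0.01 for all tested genes. In *Asxl1Y588X*Tg *Kdm6bΔ/+* against *Asxl1Y588X*Tg, 0 were called (background 0.145% higher and 1.59% lower), with 19 positive, 20 negative, and a median of -0.00 as for all genes. Both counts are near the background and do not set the list apart from other genes. An unadjusted p under 0.05 was seen for 5 of the 39 in each of these comparisons, against 1480 and 2444 of the 15825 genes, and DESeq2 called 0. The most abundant relative to length was *Rap1b*, a small GTPase of cell adhesion, at 128 CPM per kb over all libraries. Some others are given here after their values were seen. *Grb7* had the log2 difference of largest size in the list in *Asxl1Y588X*Tg against WT, and it was negative (-1.82, edgeR adjusted p = 0.189). Its mean was 34.6 normalized counts in WT, 9.74 in *Asxl1Y588X*Tg, and 12.3 in *Asxl1Y588X*Tg *Kdm6bΔ/+* cells. *Dok2*, an adaptor that binds phosphorylated TEK, was at 389 ± 47.3 normalized counts in WT and 384 ± 15.02 in *Asxl1Y588X*Tg cells. *Ptprb*, the phosphatase that opposes TEK in endothelium, was near the detection limit with 10.4 ± 9.20 and 12.4 ± 8.07.

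*Tnip2*, which links TEK to inhibition of NF-kB, was at 161 ± 6.16 in WT, 222 ± 39.7 in *Asxl1Y588X*Tg, and 149 ± 8.05 normalized counts in *Asxl1Y588X*Tg *Kdm6bΔ/+* cells (edgeR adjusted p = 0.449 and 0.112). *Klf4*, a transcription factor gene, was at 355 ± 41.9, 513 ± 35.4, and 354 ± 36.1, with log2 differences of 0.53 (edgeR adjusted p = 0.0869) and -0.52 (adjusted p = 0.0375, below the 1.5-fold minimum). Without *Asxl1Y588X*Tg replicate 2, *Tnip2* was called lower in *Asxl1Y588X*Tg *Kdm6bΔ/+* against *Asxl1Y588X*Tg, so that 1 of the list was called, and without *Asxl1Y588X*Tg *Kdm6bΔ/+* replicate 3 it was *Klf4*. *Foxo1*, which AKT inactivates below TEK and which drives *Angpt2* in endothelium, was at 355 ± 150 in WT and 263 ± 69.4 in *Asxl1Y588X*Tg cells (adjusted p = 0.772). *Angpt4*, the remaining angiopoietin ligand, was too low to be tested, with mean normalized counts between 2.17 and 7.83. These 4 genes were also chosen after their values were seen.

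The angiopoietin-like family, secreted proteins related in sequence to the angiopoietins that do not bind TEK, had 6 of 7 members tested. In *Asxl1Y588X*Tg against WT (background 1.58% higher and 0.0316% lower) and in *Asxl1Y588X*Tg *Kdm6bΔ/+* against *Asxl1Y588X*Tg (0.145% and 1.59%), 0 were called by edgeR or by DESeq2. An unadjusted p under 0.05 was seen for 1 and 0 of them, against 1480 and 2444 of the 15825 genes. With 6 genes these counts cannot be told apart from the background. The median log2 difference was 0.14 in *Asxl1Y588X*Tg against WT, beside -0.01 for all tested genes. *Angptl4*, a lipase inhibitor, was the most abundant relative to length (3.43 CPM per kb) and was at 224 ± 40.7 normalized counts in WT and 205 ± 26.3 in *Asxl1Y588X*Tg cells. *Angptl2*, chosen after its values were seen, was at 55.6 ± 5.87 in WT and 92.4 ± 6.61 in *Asxl1Y588X*Tg cells (log2 difference 0.73, edgeR adjusted p = 0.299).

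Other vascular ligands and receptors had 22 of 26 genes tested, of which 2 were called higher in *Asxl1Y588X*Tg against WT and 0 lower, beside 1.58% and 0.0316% of all tested genes. The list had 16 positive and 6 negative differences and a median of 0.43, where the median of all tested genes was -0.01. *Nrp2*, a co-receptor for VEGF and semaphorins, rose from 174 ± 33.8 to 433 ± 102 normalized counts (log2 fold change 1.31, edgeR adjusted p = 0.0134). *Robo4*, a receptor of endothelium and HSCs, rose from 27.6 ± 5.78 to 95.4 ± 9.86 (1.78, adjusted p = 0.0169). Leaving out WT replicate 3 left 0 of the list called, and leaving out *Asxl1Y588X*Tg replicate 1, replicate 2, or replicate 3 left 1, *Nrp2*. *Kdr*, the main VEGF receptor of endothelium, was at 27.1 ± 10.8 and 83.7 ± 32.3 and *Ephb4*, a venous ephrin receptor, at 6.50 ± 2.77 and 38.3 ± 15.01 (edgeR adjusted p = 0.106 and 0.0540), both chosen after their values were seen. *Vegfa*, the most abundant of the list relative to length at 16.2 CPM per kb, was at 1433 ± 155 in WT and 1251 ± 171 in *Asxl1Y588X*Tg cells. In *Asxl1Y588X*Tg *Kdm6bΔ/+* against *Asxl1Y588X*Tg, 0 of the 22 were called by edgeR (background 0.145% higher and 1.59% lower) and 2 by DESeq2, with a median of -0.35 beside -0.00 for all genes. An unadjusted p under 0.05 by edgeR was seen for 11 of the 22, against 2444 of the 15825 genes. By edgeR, 1 was called lower without *Asxl1Y588X*Tg replicate 3 (*Pdgfb*, also named after its values were seen) or without *Asxl1Y588X*Tg *Kdm6bΔ/+* replicate 3 (*Nrp2*).

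Among 23 tested genes of 24 for niche receptors and adhesion, 5 were called higher in *Asxl1Y588X*Tg against WT, of which 4 are described, beside 1.58% of all tested genes. The median log2 difference of the list was 0.18, against -0.01 for all tested genes. *Procr*, the protein C receptor of HSCs, rose from 22.7 ± 14.1 to 176 ± 55.9 normalized counts. *Selp* (P-selectin) rose from 263 ± 43.2 to 756 ± 18.6, *Jam2* (a junctional adhesion molecule) from 26.0 ± 15.5 to 133 ± 18.8, and *Cdkn1c*, a cell cycle inhibitor of quiescent stem cells, from 11.9 ± 2.04 to 62.8 ± 15.5. The count was 3 without WT replicate 3 or *Asxl1Y588X*Tg replicate 1 and 2 without *Asxl1Y588X*Tg replicate 2. The most abundant gene of the list relative to length was the chemokine receptor gene *Cxcr4* (181 CPM per kb), at 5581 ± 775 in WT and 5394 ± 338 in *Asxl1Y588X*Tg cells. In *Asxl1Y588X*Tg *Kdm6bΔ/+* against *Asxl1Y588X*Tg, 5 were called lower, beside 1.59% of all tested genes, with a list median of -0.16. They were *Procr* (log2 fold change -2.16), *Jam2* (-1.81), *Esam* (-1.73), *Selp* (-1.52), and the BMP receptor gene *Bmpr1a* (-0.70). The count was 3 without *Asxl1Y588X*Tg *Kdm6bΔ/+* replicate 1 or replicate 2. In the comparisons of *Kdm6bΔ/+* or *Asxl1Y588X*Tg *Kdm6bΔ/+* with WT and of *Asxl1Y588X*Tg *Kdm6bΔ/+* with *Kdm6bΔ/+*, and in the interaction, 0 genes of these 4 lists were called by edgeR, where at most 0.145% of all tested genes were called in either direction. Of the 39 Tie signalling genes, 0, 2, 4, and 2 had an unadjusted p under 0.05, beside 552, 1075, 1932, and 1087 of all 15825 genes, which does not set the list apart. In the same order these counts were 0, 1, 1, and 0 of 6 angiopoietin-like genes. They were 3, 4, 6, and 2 of 22 other vascular genes and 3, 4, 8, and 6 of 23 niche genes. The vascular and niche shares were above those of all genes, a difference that was not tested.

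**Figure D4:**
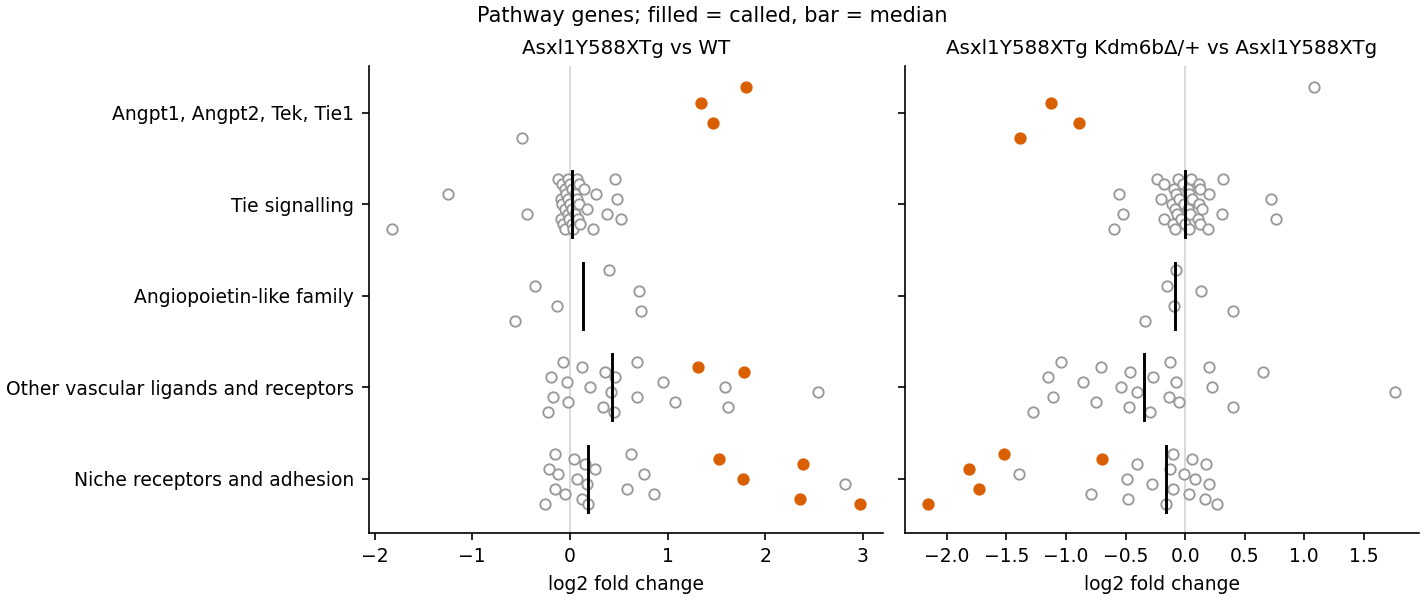
Log2 fold changes (horizontal axis) of the 4 genes and of the tested genes of the 4 lists, 1 circle per gene, with called genes filled and a black bar at the median of each list. The 39 Tie signalling genes have no filled circle in either comparison, and the 3 filled circles of the top row stand on the right for Asxl1Y588XTg against WT and on the left for Asxl1Y588XTg Kdm6bΔ/+ against Asxl1Y588XTg.

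Markers of the cell types that could carry these transcripts were measured beside them. The cells had been depleted of lineage-positive cells and then selected for cKit on magnetic beads. These steps are meant to remove most mature blood cells and most endothelial and stromal cells, which largely lack cKit. Neutrophil markers (10 genes, 10 tested), led by *S100a9*, still summed to 65693 ± 14077 CPM in WT cells, above the LK gate markers given below. They summed to 66912 ± 3174 in *Kdm6bΔ/+*, 59221 ± 5079 in *Asxl1Y588X*Tg, and 65479 ± 7201 CPM in *Asxl1Y588X*Tg *Kdm6bΔ/+* cells. The HSC list (18 genes, 18 tested) moved with *Angpt1*, *Tek*, and *Tie1*: 13 were called higher in *Asxl1Y588X*Tg against WT and 10 lower in *Asxl1Y588X*Tg *Kdm6bΔ/+* against *Asxl1Y588X*Tg, beside 1.58% and 1.59% of all tested genes. Its median log2 differences were 1.88 and -1.26, where those of all genes were -0.01 and -0.00. Its summed level was 182 ± 31.4 CPM in WT, 150 ± 12.04 in *Kdm6bΔ/+*, 582 ± 137 in *Asxl1Y588X*Tg, and 252 ± 50.1 in *Asxl1Y588X*Tg *Kdm6bΔ/+* cells. Its most abundant gene was *Vwf*, with 46.3, 30.4, 212, and 89.6 CPM in the same order, and none of its genes was at 0 in all libraries. Without *Vwf*, the 17 other genes summed to 127, 122, and 158 CPM in the 3 WT libraries, 108, 131, and 120 in *Kdm6bΔ/+*, 403, 386, and 321 in *Asxl1Y588X*Tg, and 167, 131, and 188 in *Asxl1Y588X*Tg *Kdm6bΔ/+* libraries.

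As a percentage of that sum, *Angpt1* was 28.9 ± 6.29 in WT, 28.0 ± 3.78 in *Kdm6bΔ/+*, 29.4 ± 0.896 in *Asxl1Y588X*Tg, and 30.5 ± 1.98 in *Asxl1Y588X*Tg *Kdm6bΔ/+* cells (SD, n = 3). *Tek* was 2.83 ± 0.581, 3.07 ± 0.369, 3.73 ± 0.402, and 3.21 ± 0.589, and *Tie1* was 12.8 ± 1.05, 19.7 ± 5.15, 12.01 ± 1.25, and 14.7 ± 2.28. Relative to these 17 markers, the *Asxl1Y588X*Tg libraries of the 3 genes overlapped with those of WT. With *Vwf* in the sum the same held for *Angpt1* and *Tek*, whereas *Tie1* was 9.34, 9.42, and 9.89 in the WT and 7.42, 7.09, and 8.75 in the *Asxl1Y588X*Tg libraries, which did not overlap. *Angpt2* differed, at 1.72 ± 0.816, 1.89 ± 0.196, 0.450 ± 0.212, and 2.15 ± 0.554, with the 3 *Asxl1Y588X*Tg libraries below the other 9. These shares were computed after the data were seen, and the part of the HSC markers in the results was not tested.

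**Figure D5:**
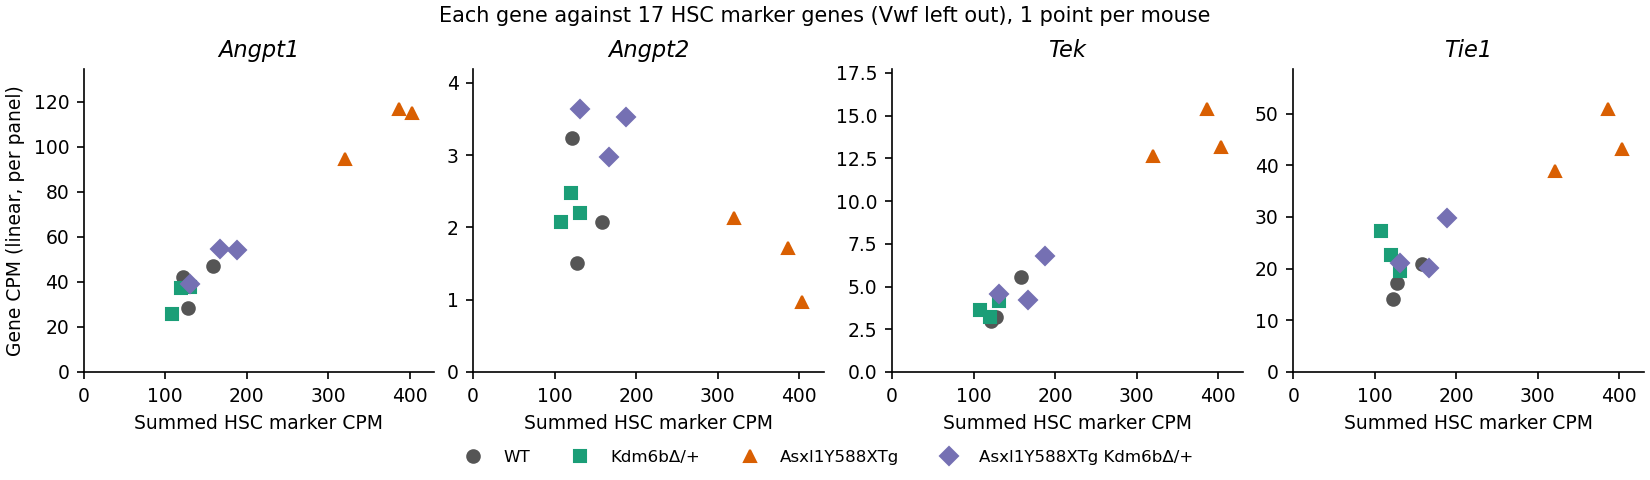
CPM of each of the 4 genes (vertical axis, a scale per panel) against the summed CPM of 17 HSC marker genes without Vwf (horizontal axis), 1 point per mouse and 1 symbol per genotype. The 3 Asxl1Y588XTg libraries, with sums of 321 to 403 CPM, stand apart from the other 9 and are highest for Angpt1, Tek, and Tie1.

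Endothelial cells are where *Tek*, *Tie1*, and *Angpt2* are best known. The endothelial list (18 genes, 14 tested) summed to 254 ± 108 CPM in WT, 229 ± 64.1 in *Kdm6bΔ/+*, 232 ± 52.4 in *Asxl1Y588X*Tg, and 250 ± 69.5 in *Asxl1Y588X*Tg *Kdm6bΔ/+* cells. Most of this was *Aqp1* (212 CPM over all libraries), a water channel gene that erythroid cells also express, and 9 of the 18 genes averaged under 1 CPM, *Cdh5*, *Flt4*, *Sox17*, and *Sox18* among them, although none was at 0 in all libraries. Without *Aqp1* the sums were 18.9 ± 2.67, 20.6 ± 5.24, 49.6 ± 12.7, and 30.3 ± 4.77 CPM. In *Asxl1Y588X*Tg against WT, 11 of the 14 tested genes had a positive log2 difference, with a median of 1.45 beside -0.01 for all tested genes. *Cldn5*, *Podxl*, and *Ramp2*, 3 of the 14, were called higher and 0 lower, beside 1.58% and 0.0316% of all tested genes. *Ramp2* is 1 of the 9 genes that averaged under 1 CPM. In *Asxl1Y588X*Tg *Kdm6bΔ/+* against *Asxl1Y588X*Tg, 7 were positive and 7 negative, with a median of 0.07 beside -0.00 for all genes. *Cldn5* alone was called lower and 0 were called higher, beside 1.59% and 0.145% of all tested genes. Endothelial markers other than *Aqp1* were thus higher in sum, as were *Angpt1*, *Tek*, and *Tie1* in *Asxl1Y588X*Tg than in WT cells. *Cdh5* (VE-cadherin), the defining junction gene of endothelium, was at 5.37 ± 1.02 normalized counts in WT, 17.5 ± 14.5 in *Asxl1Y588X*Tg, and 25.4 ± 3.08 in *Asxl1Y588X*Tg *Kdm6bΔ/+* cells and was not called (adjusted p = 0.534 and 0.661). The endothelial genes named here other than *Aqp1* were chosen after their values were seen. The part of endothelial cells in the results was not tested.

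Megakaryocyte markers (14 genes, 12 tested) summed to 186 ± 23.9 CPM in WT, 159 ± 16.7 in *Kdm6bΔ/+*, 428 ± 187 in *Asxl1Y588X*Tg, and 262 ± 35.6 in *Asxl1Y588X*Tg *Kdm6bΔ/+* cells, with *Itgb3* the most abundant. Their highest library, *Asxl1Y588X*Tg replicate 2 at 639 CPM, was also the highest for *Angpt1*, *Tek*, and *Tie1*. In *Asxl1Y588X*Tg against WT, 2 of these markers, including *Slamf1* (named after its values were seen), were called higher, beside 1.58% of all tested genes (median log2 difference 1.16). In *Asxl1Y588X*Tg *Kdm6bΔ/+* against *Asxl1Y588X*Tg, *Slamf1* alone was called lower, beside 1.59% of all tested genes. There, 3 of the 12 were positive and 9 negative (median -0.33). Stromal and perivascular markers (17 genes, 14 tested), from cells that make *Angpt1*, summed to 78.5 ± 8.91, 110.0 ± 34.1, 98.1 ± 12.4, and 138 ± 56.5 CPM, led by *Cxcl12*. By edgeR, 0 were called in either comparison with *Asxl1Y588X*Tg (background 1.58% higher and 0.0316% lower, then 0.145% and 1.59%). An unadjusted p under 0.05 was seen for 0 and 2 of the 14, against 1480 and 2444 of the 15825 genes. Their median log2 differences were 0.53 and 0.69, where those of all genes were -0.01 and -0.00. In *Asxl1Y588X*Tg *Kdm6bΔ/+* against WT the median of these markers was 1.04, and 7 of the 14 had an edgeR unadjusted p under 0.05, against 1075 of all genes. In *Kdm6bΔ/+* against WT the median was 0.74, with 2 of the 14, against 552 of all genes. Their part in the results was not tested. Markers of the LK gate (14 genes, 14 tested), led by *Mpo*, summed to 18465 ± 1336 in WT and 17312 ± 578 CPM in *Asxl1Y588X*Tg cells.

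Genes with the most similar pattern were ranked by Pearson correlation of log2 CPM over the 12 libraries, among genes whose normalized count averaged 50 or more. The genes ranked numbered 11054 for *Angpt1*, *Tek*, and *Tie1* and 11055 for *Angpt2*. These values describe 12 libraries of 4 genotypes, and differences between genotypes were not separated from those between mice of 1 genotype. *Angpt1* was closest to *Cysltr2* (a leukotriene receptor gene, r = 0.98), *Egr3* (0.97), *Dapp1* (0.97), *Csgalnact1* (0.97), and *Myo6* (0.97). *Tek* was closest to *Inppl1* (a lipid phosphatase gene, 0.99), *Nrgn* (0.99), the transcription factor gene *Meis1* (0.97), *Mycn* (0.96), and *Clca3a1* (0.96). *Tie1* was closest to *Maged1* (0.98), *Arhgef40* (0.96), *Pros1* (protein S, 0.95), *Nlgn2* (0.95), and *Exoc3l2* (0.94). *Angpt2* followed other genes, *Lcor* (0.95), *Fryl* (0.94), *Cit* (0.92), *Rev1* (0.92), and *Igkv15-103* (0.90). Among the 4 genes themselves, r was 0.93 for *Angpt1* and *Tek*, 0.92 for *Tek* and *Tie1*, 0.79 for *Angpt1* and *Tie1*, and -0.38, -0.46, and -0.48 for *Angpt2* with *Angpt1*, *Tek*, and *Tie1*. Of the 11054 genes ranked for *Angpt1*, *Tek* had rank 46 and *Tie1* rank 341. For *Tek*, *Angpt1* had rank 39 and *Tie1* rank 66, and for *Tie1*, *Tek* had rank 15 and *Angpt1* rank 222.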

How the data were processed

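RNA from LK cells of 12 mice was sequenced, 1 library per mouse and 3 per genotype. The labels name an NEB Ultra RNA kit with reads of 50 bp on a NextSeq 500, whereas the methods of the study name a stranded ribosomal depletion kit. Per the submitters' processing notes, the authors used FastQC, Trimmomatic, STAR, HTSeq, and mm10, and deposited raw read counts per gene as whole numbers without normalization. Sample columns that were not used numbered 0.

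Library sizes were scaled by TMM (edgeR 4.0.16, limma 3.58.1, R 4.3.3). filterByExpr kept 15825 genes, which held 99.9% of reads. Each pair of genotypes was fitted on its 6 libraries with the robust quasi-likelihood test, and the interaction on all 12, with Benjamini-Hochberg adjustment over all genes. Standard errors came from the F statistic. Alternatives used DESeq2 1.42.0, RLE scaling, other filters, a replicate block, a term for Y-linked transcripts, and fits leaving out each library. Replicate numbers did not pair the mice (median r = -0.04, from -0.12 to 0.08 over 18 pairs). With 3 mice against 3, an exact permutation test cannot go below 0.1 and was not used.

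The 4 genes, the gene lists, and the comparisons were chosen with earlier results of these data known. Named genes are the 4 genes, pathway list genes called in either comparison with Asxl1Y588XTg, the most abundant gene of each list, the 5 most similar genes of each, and checks of the labels. Exceptions are marked in the text. One list gene that these rules would name is not reported here.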

Additional observations from a re-analysis of the deposited data

How the results depend on the processing

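The calls of *Angpt1*, *Tek*, and *Tie1* in *Asxl1Y588X*Tg against WT held under all 8 other settings and with each library left out, with log2 fold changes of 1.28 to 1.63, 1.65 to 2.14, and 1.21 to 1.497 in the latter, and -0.75 to -0.15 for *Angpt2*. In *Asxl1Y588X*Tg *Kdm6bΔ/+* against *Asxl1Y588X*Tg, leaving out libraries gave -1.21 to -0.99 for *Angpt1*, -1.63 to -1.25 for *Tek*, -1.09 to -0.78 for *Tie1*, and 0.83 to 1.34 for *Angpt2*, with 1 to 3 genes called lower. With the replicate number as a block, *Angpt1* (-1.13, adjusted p = 0.0616) and *Tie1* (-0.90, 0.123) were not called, which left 1 gene. With the term for Y-linked transcripts *Angpt1* (-1.12) and *Tek* (-1.41) were not called, which also left 1. Without an expression filter *Angpt2* was called higher (1.09, adjusted p = 0.0201), 1 gene in that direction. A minimum mean count of 50 leaves out *Angpt2*.

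In the interaction, DESeq2 called *Tie1* (-1.30), 1 gene, and the fit without an expression filter called *Angpt1* (-0.92, adjusted p = 3.04e-07), *Tek* (-1.30, 0.0345), and *Tie1* (-1.30, 4.41e-09), 3 genes. Leaving out libraries gave -1.09 to -0.74 for *Angpt1*, 0.73 to 1.32 for *Angpt2*, -1.65 to -1.16 for *Tek*, and -1.498 to -1.18 for *Tie1*, with 0 to 1 called. Differences near 0 changed sign. For *Angpt2* in *Kdm6bΔ/+* against WT the value was 0.044 with the replicate block and -0.23 to 0.34 with a library left out, and for *Tek* -0.25 to 0.25. For *Tie1* in *Asxl1Y588X*Tg *Kdm6bΔ/+* against *Kdm6bΔ/+* it was -0.071 with the Y-linked term and -0.17 to 0.17 with a library left out. The block changed no other call of the 4 genes. The causes were not tested.

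For the lists in *Asxl1Y588X*Tg against WT, other vascular genes called higher numbered 4 with DESeq2 in both fits, without a filter, and with the Y-linked term, 0 with the block, and 0 to 2 with a library left out. Niche genes called higher numbered 8 with DESeq2 on 4 genotypes, 2 with the block, and 2 to 6 with a library left out. In *Asxl1Y588X*Tg *Kdm6bΔ/+* against *Asxl1Y588X*Tg, vascular genes called lower numbered 2 with DESeq2 in both fits, 1 with edgeR on 4 genotypes, 3 without a filter, 1 with the block, and 0 to 1 with a library left out, and 1 was called higher without a filter. Niche genes called lower numbered 3 with the block, 2 with the Y-linked term, and 3 to 6 with a library left out, and 1 was called higher without a filter. Tie signalling genes called lower numbered 0 to 1 with a library left out. Over all genes, calls under the other settings with every library kept ranged from 96 to 613 higher and 4 to 28 lower in *Asxl1Y588X*Tg against WT (250 and 5 in the fits reported). In *Asxl1Y588X*Tg *Kdm6bΔ/+* against *Asxl1Y588X*Tg they ranged from 5 to 145 higher and 43 to 667 lower (23 and 252). With a library left out, the ranges of these comparisons were 108 to 245 higher and 2 to 42 lower, and 7 to 56 higher and 49 to 251 lower. With every library kept, the ranges were 6 to 26 and 0 to 27 in *Kdm6bΔ/+* against WT (12 and 3) and 3 to 131 and 0 to 51 in *Asxl1Y588X*Tg *Kdm6bΔ/+* against WT (23 and 11). They were 1 to 181 and 1 to 30 in *Asxl1Y588X*Tg *Kdm6bΔ/+* against *Kdm6bΔ/+* (9 and 6), and 0 to 79 and 0 to 179 in the interaction (0 and 2). RLE scaling moved no mean normalized count of the 4 genes by more than 1 SD. *Angpt2* rests on 17 to 71 reads per library, and the effect of depth on it was not tested.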
